A study of Mus musculus with 2 samples.

Results

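The major urinary protein genes examined here were Mup1, Mup2, Mup3, Mup18, Mup19, Mup20 and Mup21, 7 of the 21368 genes that the array's RefSeq accessions named. They were found by the accession that the scanner files give for each probe, which returned 8 probes, with 2 for Mup20 and 1 for each of the others. The family was chosen by the log2 fold changes of its probes between ureters labelled knockout and control ureters, so its values in that contrast are a description and carry no test. The arrays hold 6 further probes of the family, for Mup4, Mup5, Mup6, Mup17 and the pseudogene Mup-ps12, which are given beside them.

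Gene expression was measured in ureters of NMRI mouse embryos at E14.5 with 2 two-colour Agilent arrays, each of which carried 1 RNA labelled knockout and 1 control RNA. The RNAs labelled knockout, Tbx2/Tbx3cDKO, came from embryos heterozygous for Tbx18(cre/+) that were Tbx2(fl/fl) and also Tbx3(fl/fl). Cre recombinase made from the Tbx18 locus acts in progenitors of the ureteric mesenchyme, where it recombines the floxed alleles of these T-box transcription factor genes. The controls were Tbx18(+/+);Tbx2(fl/?);Tbx3(fl/?), without Cre, with at least 1 floxed allele of both genes and the other allele not specified. In the female pair, replicate 1, the RNA labelled knockout carried the red dye (AlexaFluor647), and in the male pair, replicate 2, it carried the green dye (AlexaFluor555). Sex and dye orientation therefore cannot be told apart. The sources used here do not give the number of embryos behind an RNA, and precision is limited by having only 2 arrays.

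Of the targeted genes, Tbx3 fell in the ureters labelled knockout, at a mean log2 ratio of -1.09 ± 0.10 (SD over n = 2 pairs, adjusted p = 0.000862 by limma), and Tbx2 rose, at 0.86 ± 0.12 (adjusted p = 0.00236), which goes against its label. The Tbx2 call ended under 1 alternative way of processing the data. Where these probes lie relative to the floxed exons is not known here, and a probe outside those exons checks nothing. The arrays held 39429 probes in 4 spots each, of which between 64.3% and 71.6% were well above background in each channel and 0 were saturated. All 16 markers of ureter tissue, from the uroplakins of the urothelium to smooth muscle actins, were well above background in both groups on both arrays. Of these 16 genes, 5 fell in the ureters labelled knockout, with the smooth muscle genes Actg2, Myh11, Acta2 and Tagln between -3.55 and -2.62 on the log2 scale, and 0 rose, beside 1.81% lower and 1.87% higher among all genes tested. A fall of this kind in a whole organ cannot separate fewer cells of a type from less RNA per cell, and the same holds for every value below.

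Major urinary proteins are small secreted lipocalins whose barrel-shaped fold holds volatile pheromones and releases them slowly from urine. Adult mouse liver makes most of them, more in males than in females, in response to pulses of growth hormone acting through the transcription factor STAT5, and some members are made in salivary, lacrimal, mammary or nasal tissue instead. The genes and many pseudogenes lie in one cluster on mouse chromosome 4. A central group, to which Mup1, Mup2, Mup17, Mup18 and Mup19 belong, consists of recent copies that are nearly identical in sequence, while Mup3, Mup4, Mup5, Mup6, Mup20 and Mup21 are older and more divergent. The array files give no probe sequence, so signal from near-identical copies cannot be assigned to 1 gene with certainty, and each value below is that of a probe.

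Promoter windows show how close the genes are to each other. The RefSeq windows used here, of 300 bases each (250 before and 50 after the start site, build GRCm38.p6), cover 14 Mup genes, among them Mup2, Mup3, Mup18, Mup19 and Mup21. Mup1 and Mup20 have no entry. These 5 are shown because their probes differed. Those of Mup2, Mup18 and Mup19 were higher in the ureters labelled knockout, that of Mup21 differed little and that of Mup3 was not detected. All 5 lie on the minus strand, Mup2 at chr4:60139807-60140106, Mup18 at chr4:61674045-61674344, Mup19 at chr4:61782175-61782474, Mup3 at chr4:62087268-62087567 and Mup21 at chr4:62150792-62151091. Capitals mark the A-rich stretch between GACCCATA and the next CTGAA, and the TATA-like TATATAA that follows it.
Mup2: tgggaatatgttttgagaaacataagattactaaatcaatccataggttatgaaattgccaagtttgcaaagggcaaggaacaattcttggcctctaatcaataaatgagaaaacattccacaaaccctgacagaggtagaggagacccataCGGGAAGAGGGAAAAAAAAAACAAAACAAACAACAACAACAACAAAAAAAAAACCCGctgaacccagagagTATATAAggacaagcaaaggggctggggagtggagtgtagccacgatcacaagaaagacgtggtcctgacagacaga
Mup18: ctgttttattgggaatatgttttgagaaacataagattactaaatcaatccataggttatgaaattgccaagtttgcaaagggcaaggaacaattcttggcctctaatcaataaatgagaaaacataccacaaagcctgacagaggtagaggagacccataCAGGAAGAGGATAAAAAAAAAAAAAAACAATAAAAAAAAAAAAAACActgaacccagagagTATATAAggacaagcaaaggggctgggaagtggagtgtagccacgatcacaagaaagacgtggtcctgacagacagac
Mup19: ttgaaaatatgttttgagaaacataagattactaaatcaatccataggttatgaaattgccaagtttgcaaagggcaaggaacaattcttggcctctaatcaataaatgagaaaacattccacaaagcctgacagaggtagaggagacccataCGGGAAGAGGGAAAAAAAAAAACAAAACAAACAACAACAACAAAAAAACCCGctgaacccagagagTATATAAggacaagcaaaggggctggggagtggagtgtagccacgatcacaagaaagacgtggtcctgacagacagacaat
Mup3: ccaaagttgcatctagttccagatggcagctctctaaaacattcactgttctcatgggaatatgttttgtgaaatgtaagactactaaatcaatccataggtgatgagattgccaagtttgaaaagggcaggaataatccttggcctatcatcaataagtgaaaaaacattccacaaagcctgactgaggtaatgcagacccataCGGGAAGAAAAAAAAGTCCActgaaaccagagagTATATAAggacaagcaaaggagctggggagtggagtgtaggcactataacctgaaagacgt
Mup21: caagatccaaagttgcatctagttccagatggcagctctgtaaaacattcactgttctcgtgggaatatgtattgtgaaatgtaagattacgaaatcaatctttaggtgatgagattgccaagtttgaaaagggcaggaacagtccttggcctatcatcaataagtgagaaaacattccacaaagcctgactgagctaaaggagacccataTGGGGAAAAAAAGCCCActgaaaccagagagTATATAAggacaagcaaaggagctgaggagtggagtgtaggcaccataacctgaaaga

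Aligned end to end, with gap positions left out, the windows of Mup2, Mup18 and Mup19 were between 95.2% and 99.0% identical to each other, and Mup3 and Mup21 were 93.9% identical to each other. Between the groups the identities were lower, from 85.1% for Mup18 and Mup21 to 88.6% for Mup2 and Mup3. With gap positions counted, Mup3 and Mup21 were 90.2% identical and Mup18 and Mup21 60.4%, with 102 gap positions. Relative to the annotated start, TATATAA began at -27 in Mup2, -28 in Mup18 and -31 in Mup19, against -11 in Mup3 and -8 in Mup21, so the windows are offset from each other. The A-rich stretch had 57 bases in Mup2, 47 in Mup18 and 52 in Mup19, against 20 in Mup3 and 17 in Mup21. The motifs were chosen after the windows were read and were searched on both strands. TATATAA was found in 13 of the 14 Mup windows and in 3.24% of all 32851 promoter windows of the same length. GACCCATA was in all 14 Mup windows and in 0.438% of all windows, and CTGAA in 14 and in 52.2%. The STAT5-type sequence TTCNNNGAA was in 0 of the 14 windows and in 8.3% of all windows, CCAAT in 6 and in 37.4%, and TATAAA, which overlaps TATATAA where an A follows it, in 2 and in 13.6%. These are matches of letters in a window near the annotated start and say nothing of binding.

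Mup1, a major urinary protein of the liver that also has effects on metabolism, had the largest measured fold change of the members. Its spots had a mean intensity of 754 over a local background of 114 in the female RNA labelled knockout and of 616 over 35.0 in the male one, against 88.4 over 33.5 in the female control and 144 over 111 in the male control. On the normalised scale its log2 levels were 9.34 (female) and 9.41 (male) in the ureters labelled knockout, against 6.93 and 6.86 in control ureters. Both values of the ureters labelled knockout lay above both control values. The log2 fold change was 2.42 (female) and 2.54 (male), a mean of 2.48 ± 0.088 (SD, n = 2 pairs) or 5.58-fold. The control RNA was well above background on 1 of 2 arrays, with 3 of 4 spots in the female pair and 0 of 4 in the male pair, so the size of the fold rests on a control level near the limit of detection.

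Mup18 and Mup19, urinary proteins of the central group, were also higher. Mup18 had log2 levels of 8.62 and 8.53 in the ureters labelled knockout, against 6.74 and 6.82 in controls, a mean log2 ratio of 1.79 ± 0.12 (SD over n = 2 pairs). Like Mup1, it was well above background in 1 of the 2 control RNAs, the female one. Mup19 had 9.11 and 9.01 in the ureters labelled knockout, against 7.38 and 7.44 in controls, a log2 fold change of 1.65 ± 0.11, and all 4 RNAs were well above background. The groups did not overlap for either probe.

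Mup2, another urinary protein of the central group, had log2 levels of 8.90 (female) and 8.75 (male) in the ureters labelled knockout, against 7.34 in both controls. Its mean log2 ratio was 1.49 ± 0.11 (SD over n = 2 pairs), 2.80-fold, and all 4 RNAs were well above background. Mup2 and Mup19 are therefore the members whose higher level is measured on both sides of the ratio in both pairs. After subtraction of the local background, the mean raw intensity of Mup2 was 450 (female) and 346 (male) in the ureters labelled knockout, against 92.3 and 79.5 in controls. That of Mup19 was 530.0 and 427 in the ureters labelled knockout, against 97.3 and 90.0 in controls.

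Mup20 encodes darcin, the male pheromone protein of mouse urine, and its 2 probes differed. The brighter probe (A_55_P2051486) had log2 levels of 7.95 and 7.86 in the ureters labelled knockout, against 6.54 and 6.61 in controls. Its control RNA was not well above background on either array. Set against the lowest level of a detected probe in each control channel, the level in the ureters labelled knockout was at least 2.02-fold higher, while the measured log2 fold change was 1.33 ± 0.11 (SD, n = 2 pairs). The other probe for the same accession (A_55_P2063654) was not well above background in any RNA, so it gives no fold change for Mup20.

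Mup21 and Mup3 stood apart from the others. Mup21, a divergent member at one end of the cluster, was clearly detected in every RNA, with log2 levels of 8.50 and 8.55 in the ureters labelled knockout, against 8.44 and 8.51 in control ureters. The groups overlapped and the log2 fold change was 0.048 ± 0.020 (SD, n = 2 pairs), 1.03-fold. After subtraction of the local background its raw intensity was 316 and 294 in the ureters labelled knockout, against 265 and 282 in controls. Mup3, at 6.60 and 6.42 in the ureters labelled knockout and 6.35 and 6.22 in controls, had 0 of 4 spots well above background in each RNA and was not tested.

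**Figure D1:**
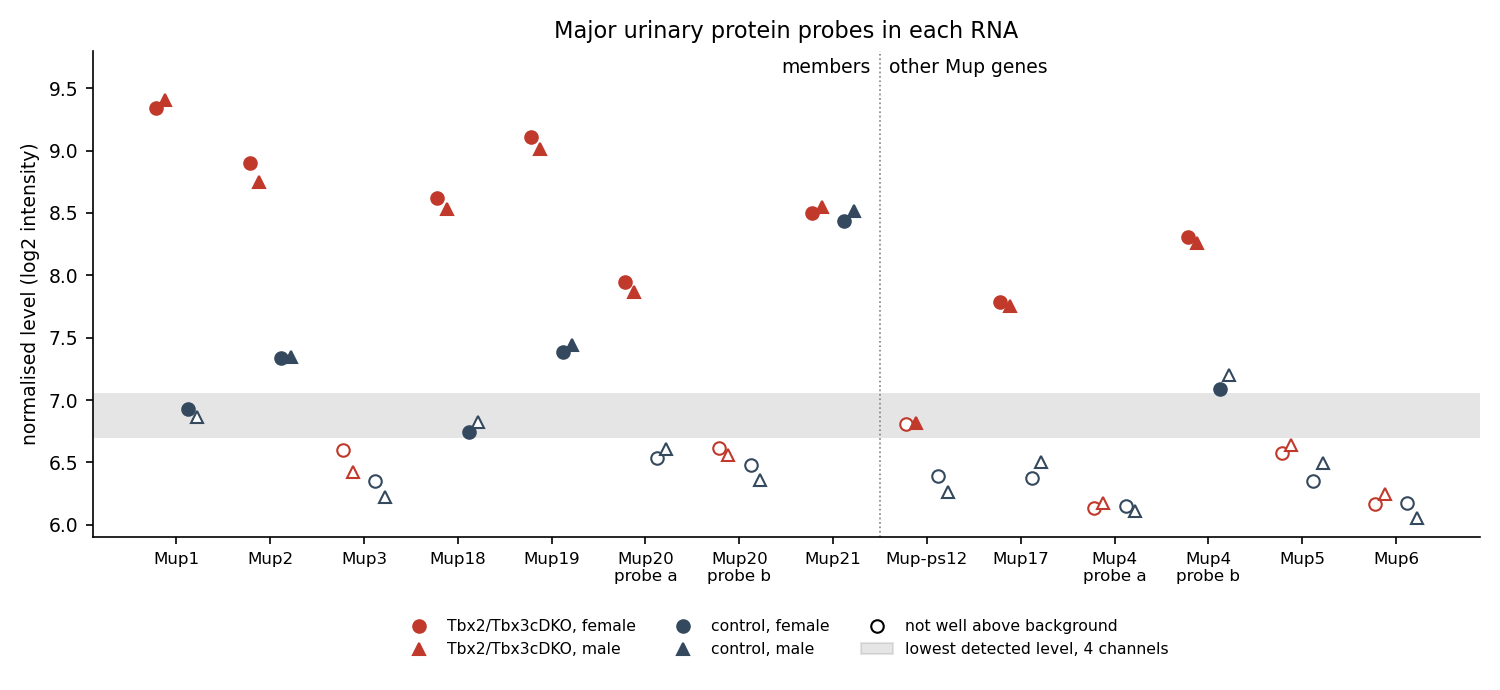
Normalised log2 intensity (vertical axis) of each Mup probe in the 4 RNAs, ureters labelled Tbx2/Tbx3cDKO left of control for each probe, female as circles and male as triangles. Open symbols were not well above background and the grey band spans the lowest detected level of the 4 channels. Mup1, Mup2, Mup18, Mup19 and the first Mup20 probe separate the groups, whereas Mup21 sits between 8.44 and 8.55 in all 4 RNAs. Levels of different probes are not comparable with each other.

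Among the members detected in all 4 RNAs, the fold change was largest for Mup19, then Mup2, then Mup21, in both pairs. Mup19 and Mup2 lay 0.16 apart on the log2 scale in each pair. Mup1, Mup18 and Mup20 take no exact place in this order, since 1 or both of their control RNAs were not well above background, and Mup3 was below background in every RNA. Of the 7 members, 5 had a measured fold of 2 or more in each pair, as did 0.208% of the 20629 genes tested. For 6 members, Mup3 below background among them, both levels of the ureters labelled knockout exceeded both control levels, where 17.9% of the genes tested did. Since the members were chosen with this contrast known, nothing is read from these shares. The median log2 fold change over all 7 members, by the brightest probe of each, was 1.49, beside -0.0021 over all genes tested. The filter on dim probes let 6 of the 7 through, Mup3 being the exception.

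The female and the male pair gave similar values for each member. Mup18 had 1.88 (female) and 1.70 (male), Mup19 1.72 and 1.57, Mup2 1.57 and 1.41, and Mup20 1.41 and 1.26. The female value was the higher one for these members and for Mup21, and the male value for Mup1. With 1 RNA per sex and group, and with the dyes exchanged between the pairs, no test of a sex difference was possible.

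The size of the fold depended on how the background was handled, while its direction did not for Mup1, Mup2, Mup18, Mup19 and the brighter Mup20 probe. With the offset lowered to 10, Mup18 was at a log2 fold change of 2.29, Mup20 at 1.87 and Mup2 at 1.77. The scanner software's processed signals put Mup1 at 4.06, Mup18 at 3.35 and Mup20 at 3.24, above Mup19 at 2.39 and Mup2 at 2.22, so the measured sizes below Mup1 changed places. In the authors' deposited table Mup1 had a mean log2 value of 3.42, the signed folds of Mup2 were 4.97 (female) and 4.17 (male), and those of Mup19 were 5.35 and 5.59. Mup3 and the second Mup20 probe were at exactly 1 in the authors' deposited table, and Mup21 was at 1.07 and 1.03. The lowest log2 fold change was taken over the means of both pairs in each setting run and over either pair alone in the main setting. It was 2.42 for Mup1, 1.70 for Mup18, 1.57 for Mup19 and 1.41 for Mup2. For Mup20 it was 0.75, where its 2 probes were averaged.

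**Figure D2:**
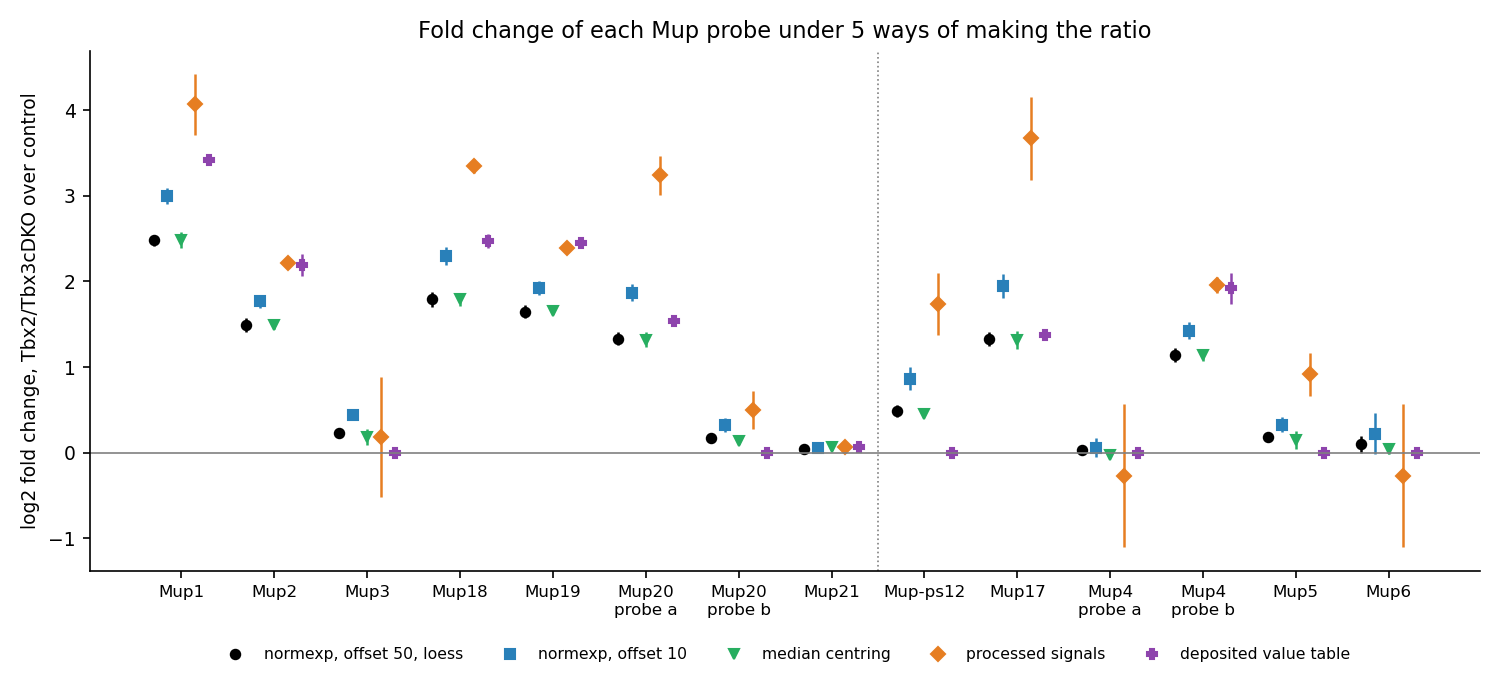
Log2 fold change of each Mup probe, ureters labelled Tbx2/Tbx3cDKO over control (vertical axis), under 5 ways of making the ratio. Symbols are means of the 2 pairs and bars join the female and male values. Mup1 runs between 2.48 and 4.06 over the 5 settings shown, while Mup21 stays between 0.048 and 0.068.

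Among the other Mup genes on the array, Mup17 and Mup4 were detected in both RNAs labelled knockout. Mup17, a copy of the central group, had log2 levels of 7.79 and 7.75 in the ureters labelled knockout, against 6.38 and 6.51 in controls. Its control RNA was not well above background on either array, and the level was at least 1.84-fold higher, with a measured log2 fold change of 1.33 ± 0.12 (SD, n = 2 pairs). Mup4, a divergent member made in nasal tissue, had 1 probe (A_55_P2010093) at 8.31 and 8.26 in the ureters labelled knockout, against 7.09 and 7.20 in controls, a log2 fold change of 1.14 ± 0.12, and its control RNA was well above background on 1 of 2 arrays. With the processed signals Mup17 was at 3.67 and this Mup4 probe at 1.96. The other Mup4 probe (A_55_P2007816) was not well above background in any RNA. Mup5 and Mup6 were not well above background on any array by the rule of more than 2 of 4 spots, and Mup-ps12 was above it in 1 RNA, that of the male labelled knockout. The groups did not overlap for the Mup17 probe or for the brighter Mup4 probe. Both took part in the fit over all genes, but they belong to the family chosen by this contrast, so no p-value is given for them and nothing is read from their calls.

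The promoter windows of these genes can be set beside those printed above. The Mup17 window was 99.3% identical to that of Mup2, 99.0% to Mup19 and 96.2% to Mup18 with gaps left out, and its A-rich stretch had 54 bases. The Mup4 window was 91.3% identical to Mup2 and 86.1% to Mup21, with a stretch of 23 bases, and that of Mup6, a gene not detected in these RNAs, was 93.0% identical to Mup4 with a stretch of 21 bases. A long stretch was thus found with Mup2, Mup17, Mup18 and Mup19 and a short one with Mup3, Mup6 and Mup21, but also with Mup4, whose brighter probe was higher in the ureters labelled knockout. This is a description of 8 genes that share descent, noticed after their values were known.

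**Figure D3:**
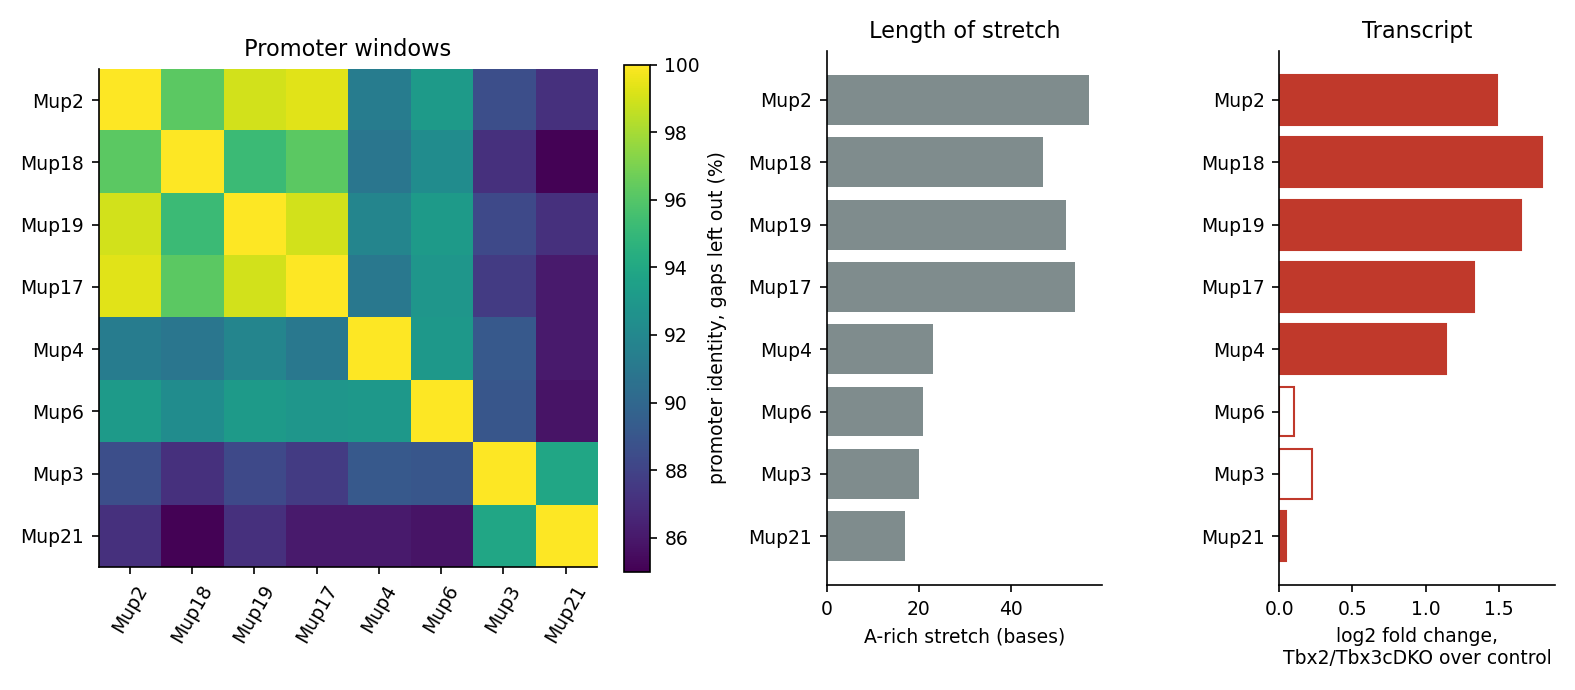
Left, identity of the promoter windows of 8 Mup genes in percent, with gap positions left out. Middle, length in bases of the stretch between GACCCATA and CTGAA, and right, log2 fold change of the brightest probe of each gene, ureters labelled Tbx2/Tbx3cDKO over control, open bars being genes below background on every array. The stretch has 47 to 57 bases in Mup2, Mup18, Mup19 and Mup17 and 17 to 23 in Mup4, Mup6, Mup3 and Mup21.

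Lipocalins outside the Mup family share its fold and bind other small molecules. Of 24 lipocalin genes listed, 21 had a probe, 10 were tested, and 0 were called higher or lower by limma at an adjusted p under 0.05, where 1.87% of all genes tested were higher and 1.81% lower. With 10 genes tested, a count of 0 lies near those shares. At an unadjusted p under 0.05 by limma, 1 of the 10 passed. The share of all genes at that unadjusted threshold is not given here. Nothing is therefore read from this count or from the unadjusted counts of the lists below. The largest mean changes among the 10 were those of Rbp4, the carrier of retinol in plasma, at -0.19 ± 0.012 on the log2 scale (SD over n = 2 pairs, limma, adjusted p = 0.254), and of Apom, an apolipoprotein that carries sphingosine phosphate, at -0.095 ± 0.12 (adjusted p = 0.738). The list's median was -0.046. Of the 21 probes, 11 were not well above background in either group on any array, among them the odorant-binding Obp2a and the acute-phase proteins Orm1, Orm2 and Orm3.

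Known regulators of Mup transcription in liver were also examined, from the growth hormone receptor Ghr and Stat5a and Stat5b to the hepatic factor Cebpa and the nuclear receptors. Of 22 genes, 19 were tested, 1 rose, 0 fell and 18 did not pass, beside 3.68% of all genes tested that were called in either direction. With 19 genes tested, a count of 1 lies near that share. At an unadjusted p under 0.05 by limma, 4 of the 19 passed, with no share over all genes to set beside them. The gene that rose was Bcl6, a repressor that competes with STAT5 for its sites, with log2 levels of 10.84 and 10.99 in the ureters labelled knockout, against 10.51 and 10.54 in controls. The mean log2 ratio of Bcl6 was 0.39 ± 0.085 (SD over n = 2 pairs, limma, adjusted p = 0.0361), and this call ended with the processed signals, the deposited values and median centring. Stat5b was at 14.20 and 13.67 in the ureters labelled knockout, against 13.99 and 13.84 in controls, and the groups overlapped. The list's median was 0.020.

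Markers of hepatocytes, the main source of these proteins in the adult, were measured in the same RNAs. Of 22 markers, 13 were tested, 1 rose, 2 fell and 10 did not pass, beside 1.87% higher and 1.81% lower among all genes tested, and the list's median was -0.019. At an unadjusted p under 0.05 by limma, 6 of the 13 passed, again with no share over all genes to set beside them. The marker that rose was Cyp2e1, a cytochrome P450 that oxidises ethanol and is expressed outside liver too, at 9.34 and 9.39 in the ureters labelled knockout, against 7.74 and 7.78 in controls, a mean log2 ratio of 1.60 ± 0.0042 (SD over n = 2 pairs, limma, adjusted p = 0.000172). The markers that fell were Afp, the fetal plasma protein alpha-fetoprotein, at -0.75 ± 0.046 (adjusted p = 0.00283), and serum albumin, Alb, at -0.68 ± 0.13 (adjusted p = 0.00692). The Alb call ended with the deposited values, where its limma adjusted p was 0.0699, and with the processed signals its log2 fold change was -1.18. Afp was at 8.17 and 8.01 in the ureters labelled knockout, against 8.89 and 8.79 in controls, and the groups did not overlap. The summed normalised intensity of the 22 markers was 11299 and 10675 in the ureters labelled knockout, against 10646 and 10309 in controls. Of the 22, 8 were below background in both groups on both arrays, Apoa1, Apob, Fga and Fgb among them. Their levels are part of the sum. A few bright probes carry this sum, with the transferrin gene Trf at log2 levels of 12.37 and 12.33 in the ureters labelled knockout, against 12.21 and 12.25 in controls, followed by Apoa2. Next came Cyp2e1 in the ureters labelled knockout and Afp in controls. Trf and Apoa2 were named after their values were seen.

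Fat and several exocrine glands also make Mup proteins, and their markers gave no called gene, beside 3.68% of all genes tested. With so few markers tested, a count of 0 lies near that share. Of 12 adipocyte markers 4 were tested and 0 passed (1 at an unadjusted p under 0.05), with Fabp4 at -0.24 ± 0.023 (SD, n = 2 pairs, limma, adjusted p = 0.141) and Pparg, the nuclear receptor of fat cell differentiation, at -0.11 ± 0.14 (adjusted p = 0.665). The summed normalised intensity of the 12 was 33039 and 30444 in the ureters labelled knockout, against 35624 and 34732 in controls. The hormone genes Adipoq and Lep and the brown fat gene Ucp1 were among 6 that were below background throughout but are part of the sum. Fabp4, Pparg and Dgat2 carry this sum, at log2 levels of 13.70, 13.37 and 12.95 in the female RNA labelled knockout. Dgat2 was named after its values were seen. Of 12 markers of salivary, lacrimal and mammary glands 3 were tested and 0 passed (0 at an unadjusted p under 0.05), with the amylase Amy1 at -0.088 and the milk protein Lalba at 0.046. Their summed normalised intensity was 1685 and 1688 in the ureters labelled knockout, against 1740 and 1683 in controls. Of the 12, 9 were below background throughout, the milk proteins Csn2 and Wap among them, and their levels are part of the sum. The part of any of these cell types in the Mup values was not tested.

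The genes on either side of the Mup cluster were taken from the RefSeq order, 6 on each side. Of the 12, 11 were tested with limma and 0 were called (0 at an unadjusted p under 0.05), beside 3.68% of all genes tested. With 11 genes tested, a count of 0 lies near that share. Slc31a2, a copper transporter gene, had the largest mean change, at 0.12 ± 0.082 on the log2 scale (SD over n = 2 pairs, limma, adjusted p = 0.546), and Snx30, a sorting nexin gene, was at 0.098 ± 0.032 (adjusted p = 0.668). The list's median was -0.0023, and Slc46a2, the neighbour of the cluster on one side, was not detected in either group.

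**Figure D4:**
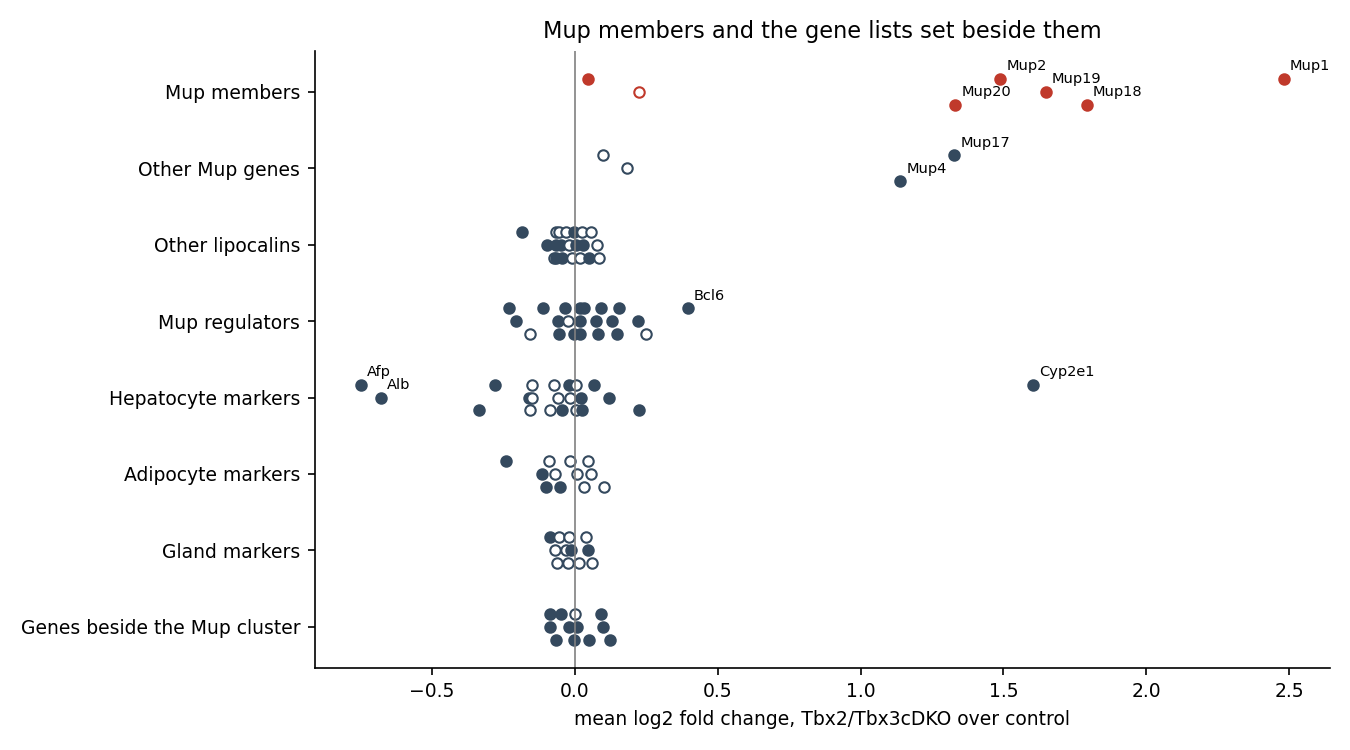
Mean log2 fold change of single genes, ureters labelled Tbx2/Tbx3cDKO over control (horizontal axis), for the 7 Mup members and for 7 gene lists. Filled points passed the filter on dim probes and open points did not. Apart from Mup genes, the points with names are Bcl6, Cyp2e1, Afp and Alb.

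The genes outside the family whose log2 fold changes in the 2 pairs lay nearest to those of Mup1 were Tmem229a, Gbp2b, Cox8b, Gbp3 and Gabra2, by Euclidean distance over the 2 pairs among all genes tested with a standard symbol. Tmem229a, a transmembrane protein gene, was the nearest at a distance of 0.397, with 2.44 (female) and 2.15 (male). The interferon-inducible GTPase genes Gbp2b and Gbp3 were at 1.79 (female) and 2.87 (male) and at 1.66 and 2.08. Cox8b, a cytochrome c oxidase subunit gene of muscle and brown fat, was at 1.96 and 1.79, and Gabra2, a GABA receptor subunit gene, at 1.69 and 1.75. Likeness over 2 values is a description of these arrays.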

How the data were processed

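Labelled cRNA of each pair was hybridised to a two-colour array by the authors, and spots were read with Agilent Feature Extraction 10.7.3.1, a version given in the submitters' processing notes. Per the file headers, the deposited scanner files give spot and local background intensity for both channels, and intensity signals after the software's own background subtraction and dye normalization. The authors also deposited a table with 1 score per probe and array, a signed fold whose construction is not stated in any source used here. Over probes well above background, log2 of this fold correlated at 0.982 and 0.985 with the processed signals turned to knockout over control, which gives its direction. The columns' median was 1, as were exactly 33.7% (female) and 34.1% (male) of the entries. Its centring and floor are not known.

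Mean intensities were corrected with normexp (offset 50) and normalized by loess within each array (limma 3.58.1, R 4.3.3), with control spots at weight 0. Non-uniform spots (186 female, 223 male) were left out and the 4 spots of a probe averaged. Levels per RNA are values after Aquantile. A probe was well above background in an RNA where more than 0.5 of its spots were, and the 25934 of 39396 probes that were so in 1 group on both arrays were tested, the brightest standing for a gene. The limma fit, with Benjamini-Hochberg adjustment over 20629 genes, had 5.24 prior degrees of freedom beside 1 residual one. Its p-values draw mostly on spread pooled over genes and measure only the spread between these samples. A bound ("at least") sets the knockout level against the mean, over control channels, of the higher of the lowest signal of a detected probe and the dim probe's own signal. By the file headers both arrays were read in 1 scan, so the scan does not separate the pairs.

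Accessions were paired with symbols through RefSeq (GRCm38.p6), which named 28328 of 39429 probes. Promoter windows were aligned globally (Biopython 1.88). Members, gene lists and tests were chosen with earlier results of these data known. Named genes were the Mup genes, Tbx2, Tbx3, the called genes of each list up to 4 (where there were none, the 2 that differed most on average) and the 5 genes nearest to Mup1. In simulated intensities for this comparison, with 200 of 20629 genes changed, 70.1% of 1.5-fold changes and 100% of 2-fold and of 4-fold changes were called, as were 12 of 20429 unchanged genes. The simulated spots had a constant background and spreads drawn from the fit's own prior. These shares may therefore not hold for dim probes such as those of the Mup genes. Alternatives covered background, signal, normalization, filter, spots, probes, variance model and replicates.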

Additional observations from a re-analysis of the deposited data

Results flagged for a closer look

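The named genes, the Mup probes and the medians of the gene lists were screened for opposite signs in the male and the female pair. Among them 4 values had opposite signs, and with 1 pair per sex these differences were not tested. Lalba, a milk protein gene, had log2 fold changes of 0.13 (male) and -0.034 (female), a difference of 0.16. The dimmer Mup4 probe had 0.067 and -0.013, a difference of 0.080, and Mup6 had 0.20 and -0.00035, a difference of 0.20, with both probes below background on both arrays. The median of the genes beside the Mup cluster was -0.062 (male) and 0.090 (female), a difference of -0.15. The other genes of the lists were outside this screen, and some also had opposite signs. Stat5b, at -0.17 (male) and 0.21 (female), and the lipocalin gene Apod, at -0.15 and 0.25, were among these.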

How the results depend on the processing

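The median of the Mup members, 1.49 with both pairs, was between 1.41 and 1.57 with 1 pair left out, 1.87 with offset 10, 2.39 with the processed signals and 2.19 with the deposited values, and stayed positive under all alternatives run. Of all genes, 249 were higher and 214 lower with the processed signals, 114 and 128 with median centring, and 116 and 128 with the deposited values, against 385 and 374. Of the Mup genes outside the members, which are given without a test, 0 passed the fit over all genes where a probe had to be well above background in both channels of both arrays, since Mup4 and Mup17 then were not tested, and the count of called Mup regulators was 0 with the processed signals, median centring and the deposited values; the cause of the changes was not tested. Counts for the other lists stayed the same under each alternative or within 1.5 times. The calls of Alb and Tbx2 ended with the deposited values and that of Bcl6 with the 3 settings just named, while those of Cyp2e1, Afp and Tbx3 held under each alternative that gave a test. Each array sets the RNAs of a pair against each other, so the fit over log2 ratios was already paired and no separate paired analysis was run. Signal over background limits the size of the folds of Mup1, Mup18, Mup20, Mup17 and Mup4. The folds of Mup2 and Mup19 were also larger with offset 10, the processed signals and the deposited values, so their size depends on background handling too.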
